A study of Mus musculus with 6 samples.

Results

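The genes described here are the 3 lipins (Lpin1, Lpin2 and Lpin3) and 7 other genes that build, break down or coat stored triglyceride (Gpam, Dgat1, Dgat2, Pnpla2, Lipe, Plin2 and Plin5), measured in mouse hearts under pressure load. A probe set is a group of short probes read together as 1 value. All probe sets that the array annotation assigns to a single one of these symbols were taken, which gave 20 of the 38195 probe sets tested, for 10 of 18029 genes. The genes were chosen by their role and with results of the same knockout against wild type contrast already known, in which the measured difference of Lpin1 was among the large falls. Their differences between genotypes are therefore descriptions, and the array-wide limma values printed beside them say where each probe set stood in that fit and support nothing further.

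RNA came from the hearts of 3 mice labelled Tmbim1 KO and 3 labelled Flox; wild type, all on the C57BL/6 background, 8 weeks old by the series description and collected 2 weeks after aortic banding (spelled binding in the labels). Aortic banding narrows the aorta so that the ventricle must work against a raised pressure. Each mouse gave 1 Affymetrix expression array from 400 ng of total RNA. The labels name no Cre line, promoter or deleted exon, so it is not known here which cells lost Tmbim1, a membrane protein of endosomes and lysosomes. No heart without banding was analysed here, and every comparison is between genotypes in loaded hearts. The heart muscle genes of the cardiomyocyte list were bright on every array, with a summed log2 signal of 16.42 to 16.58.

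Triglyceride is made from glycerol-3-phosphate in a chain of reactions. Gpam adds the first fatty acid at the mitochondrial surface, lipins remove the phosphate from phosphatidate to give diacylglycerol, and the Dgat enzymes add the last fatty acid. Droplets are coated by perilipins, and stored fat is released first by Pnpla2 (adipose triglyceride lipase) and then by Lipe (hormone-sensitive lipase). The heart burns mostly fatty acids and passes part of them through this pool before oxidation. Lipin 1 is also known to work in the nucleus together with the coactivator PGC-1 alpha and the receptor PPAR alpha on genes of fatty acid use.

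The stretches upstream of the transcript start are shown for Lpin1, whose probe sets carried the array-wide calls, for its relative Lpin2, and for Plin5. Each window shown holds a motif marked below. Gpam, Pnpla2 and Plin2 were brighter than Plin5 and are not shown, and the window of Pnpla2 holds neither motif. The windows come from RefSeq on GRCm38.p6, which held 14 such windows for 8 of the 10 genes (Dgat1 and Dgat2 are the other two). Each is the 250 bases before a start, 5′ to 3′ on the gene's strand. Capitals mark the nuclear receptor half-site, which is spelled AGGTCA. Read on the opposite strand this half-site is spelled TGACCT. Capitals also mark the E-box, searched only in the form CACGTG, which is a palindrome. Both strands were searched. Lpin1 lies at chr12:16610967-16611216 on the minus strand, Lpin2 at chr17:71183282-71183531 on the plus strand (the first of its 3 windows) and Plin5 at chr17:56117549-56117798 on the minus strand (1 of its 2 windows).
Lpin1: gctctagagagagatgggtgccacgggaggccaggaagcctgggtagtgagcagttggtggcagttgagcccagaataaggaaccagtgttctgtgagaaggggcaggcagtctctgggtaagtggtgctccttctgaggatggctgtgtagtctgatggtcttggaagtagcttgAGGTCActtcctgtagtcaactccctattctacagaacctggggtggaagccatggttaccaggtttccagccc
Lpin2: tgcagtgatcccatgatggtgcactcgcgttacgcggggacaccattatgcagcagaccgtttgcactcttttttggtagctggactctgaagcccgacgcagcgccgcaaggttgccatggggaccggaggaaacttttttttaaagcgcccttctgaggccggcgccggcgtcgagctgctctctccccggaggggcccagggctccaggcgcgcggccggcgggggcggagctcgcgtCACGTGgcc
Plin5: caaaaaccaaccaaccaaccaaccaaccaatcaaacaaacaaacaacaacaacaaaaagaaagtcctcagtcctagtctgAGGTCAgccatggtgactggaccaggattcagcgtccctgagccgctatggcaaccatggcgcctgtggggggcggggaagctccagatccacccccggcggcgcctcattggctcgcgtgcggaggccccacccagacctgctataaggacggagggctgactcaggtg
The half-site occurred in 4 of the 14 windows, 1 each of Lpin1, Gpam, Plin2 and Plin5, and in 14% of the 32851 windows of the table. The E-box occurred in 2 of the 14, 1 each of Lpin2 and Lipe, and in 6.02% of all. The differences between genotypes at the main probe sets of the half-site genes were -0.78 for Lpin1, -0.40 for Plin5, -0.29 for Gpam and -0.06 for Plin2. Those of the other genes with windows were 0.11 for Lpin2, 0.05 for Lpin3, -0.02 for Lipe and -0.40 for Pnpla2. A match of letters is no evidence that a factor binds there.

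Lower signals in knockout hearts were seen for Lpin1 and Dgat2, with smaller differences for Pnpla2, Plin5 and Gpam, while Lpin2, Lpin3, Dgat1, Lipe and Plin2 lay within 0.11 of the wild type mean at their main probe set (the one of each gene with the highest mean signal). All differences are given in log2 units as the knockout mean less the wild type mean. The array-wide limma fit called 2 of the 20 probe sets lower, both of Lpin1, against 0.183% of all probe sets, and 0 higher, against 0.238%. An unadjusted p under 0.05 was reached by 8 of the 20, against 10.6% of all probe sets. All 3 knockout arrays lay below all 3 wild type arrays in 6 of the 20 (8.42% of all probe sets), above them in 0 (6.74%), and the groups overlapped in 14. The median difference was -0.18 over the 10 main probe sets and -0.002 over all 18029 genes.

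**Figure D1:**
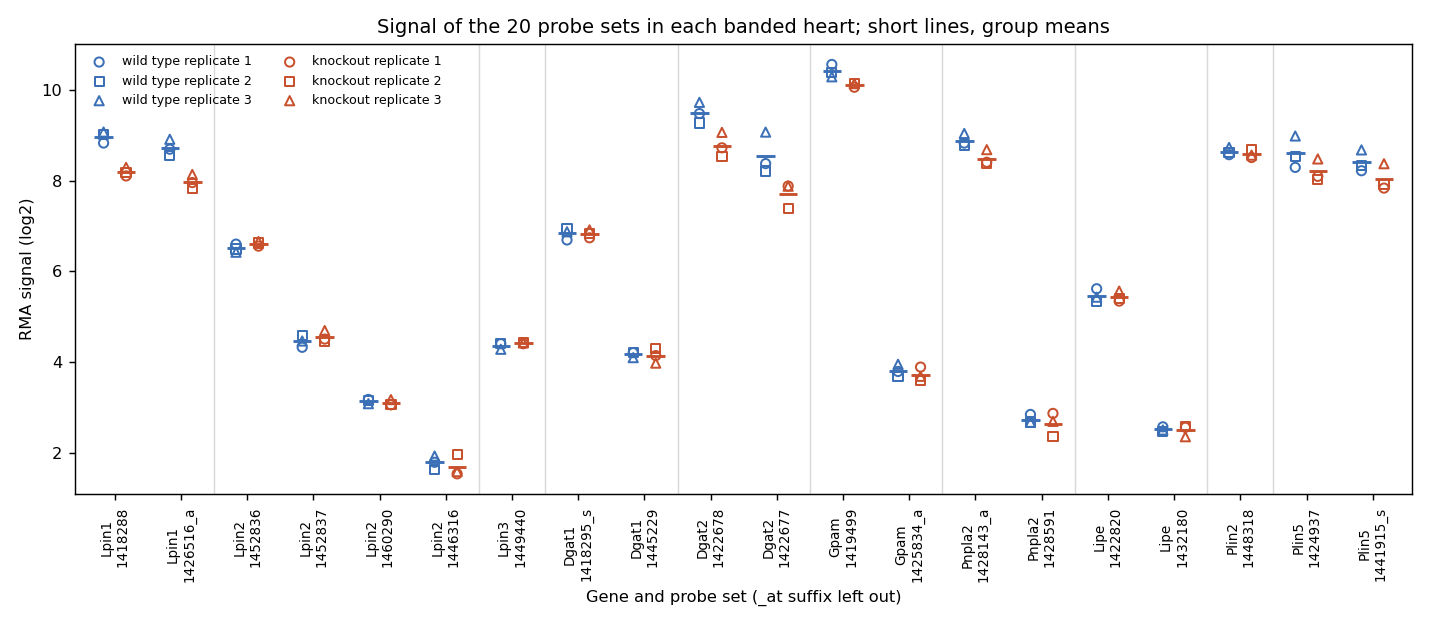
RMA signal (log2, vertical axis) of each of the 20 probe sets (horizontal axis, grouped by gene) in 3 wild type (blue) and 3 knockout (red) hearts; symbols mark the replicate and short lines the group means. Both Lpin1 and both Dgat2 probe sets show 3 knockout points below 3 wild type points, with a gap of 0.54 for the main Lpin1 probe set, whereas the Lpin2, Lpin3, Dgat1, Lipe and Plin2 points overlap.

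Tmbim1 itself checked the labels. Its only probe set read 8.58, 8.38 and 8.33 in wild type replicates 1 to 3 and 7.53, 7.49 and 7.56 in knockout replicates 1 to 3. The groups did not overlap, and the difference was -0.91 (SE 0.10, limma adjusted p = 0.00579), a 1.87-fold lower signal. The knockout readings stayed above the upper quartile of every array (6.15 to 6.24), so signal remained at this probe set. On the first principal component, wild type replicate 3 lay at -37.0 and the other wild type arrays at -8.48 and -9.65. Values without that array are therefore given for the list medians and for several of the larger differences. Knockout replicate 1 carried atrial transcripts. Myl7 read 12.86 there against 3.45 to 3.90 on the other 5 arrays, and Sln 12.17 against 2.42 to 2.77. The summed atrial marker level was 15.06 there, 13.64 and 13.36 in knockout replicates 2 and 3, and 11.86 to 12.68 in wild type. Nppa, also on that list, was higher in every knockout heart. It differed by 1.19 (limma adjusted p = 0.0496), and by 0.92 without wild type replicate 3.

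Lpin1 encodes lipin 1, the main phosphatidate phosphatase of striated muscle. Its main probe set, 1418288_at, read 8.83, 9.01 and 9.07 in wild type replicates 1 to 3 and 8.10, 8.18 and 8.29 in knockout replicates 1 to 3. Every knockout heart was below every wild type heart, and the spread within a genotype was small (SD 0.13 in wild type and 0.10 in knockout, n = 3 each). The difference was -0.78 (SE 0.10, 95% interval -1.01 to -0.54, limma adjusted p = 0.0158), a 1.72-fold lower signal. A second probe set, 1426516_a_at, read 8.69, 8.56 and 8.91 in wild type and 7.96, 7.83 and 8.13 in knockout hearts, again without overlap. Its difference was -0.74 (SE 0.12, limma adjusted p = 0.0405). The suffix _a_at marks probes shared by alternative transcripts, and _s_at or _x_at, used for other genes, probes that may match other transcripts or sequences. Both Lpin1 probe sets were bright, at the 94.0th and 92.9th percentile of mean signal.

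The size of the Lpin1 difference changed little when single arrays were left out, but the call did not hold. The main probe set ranged from -0.85 to -0.73 and kept its call without wild type replicate 1 (adjusted p = 0.0282) or knockout replicate 3 (adjusted p = 0.0477), and lost it without wild type replicate 2 (0.0715), wild type replicate 3 (0.0605), knockout replicate 1 (0.0937) or knockout replicate 2 (0.101). The second probe set ranged from -0.83 to -0.65 and lost its call in each of the 6 cases (adjusted p from 0.0670 to 0.182).

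Lpin2 encodes another phosphatidate phosphatase of the same family, best known from liver and macrophages. Its main probe set, 1452836_at, read 6.60, 6.49 and 6.42 in wild type and 6.55, 6.62 and 6.66 in knockout hearts, which overlapped. The difference of 0.11 had a 95% interval from -0.11 to 0.32 (limma adjusted p = 0.788, and 0.07 without wild type replicate 3), an interval that does not reach the size seen for Lpin1 in either direction. The other 3 Lpin2 probe sets read between 1.53 and 4.69 on any array, and differed by 0.10 (1452837_at), -0.04 (1460290_at) and -0.09 (1446316_at). Of these, 1446316_at stayed under each array's lower quartile of signal in both genotypes and says little about the transcript.

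Lpin3, the third family member, has 1 probe set, 1449440_at, near the middle of the scale. It read 4.40, 4.40 and 4.28 in wild type and 4.40, 4.42 and 4.42 in knockout hearts. The difference was 0.05 (95% interval -0.15 to 0.26, limma adjusted p = 0.905).

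Gpam, the mitochondrial acyltransferase at the entry to the pathway, was bright, at the 98.3rd percentile of mean signal. Its main probe set, 1419499_at, read 10.56, 10.38 and 10.29 in wild type and 10.06, 10.14 and 10.14 in knockout hearts. The groups were separated by 0.14, and the difference was -0.29 (SE 0.10, 95% interval -0.52 to -0.07, limma adjusted p = 0.319), which did not pass. The dimmer probe set 1425834_a_at differed by -0.08 with overlapping groups.

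The Dgat enzymes, which close the pathway and are unrelated in sequence, did not show the same values. Dgat2 read 9.48, 9.27 and 9.72 in wild type and 8.72, 8.53 and 9.06 in knockout hearts at its main probe set, 1422678_at. No knockout heart reached the lowest wild type value, and the difference of -0.72 (SE 0.16, 95% interval -1.07 to -0.37) did not pass the array-wide threshold (limma adjusted p = 0.107).

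The second Dgat2 probe set, 1422677_at, read 8.37, 8.21 and 9.07 in wild type and 7.88, 7.38 and 7.88 in knockout hearts. It showed the most negative difference of the 20 probe sets, -0.84, but also the widest spread among wild type hearts (SD 0.46, n = 3), and did not pass (SE 0.22, limma adjusted p = 0.171). Without wild type replicate 3 the Dgat2 differences were -0.60 and -0.58. For Dgat1 the main probe set, 1418295_s_at, read 6.69, 6.95 and 6.87 in wild type and 6.74, 6.83 and 6.91 in knockout hearts. These overlapped throughout, with a difference of -0.01 (95% interval -0.24 to 0.23, limma adjusted p = 0.992), and the dimmer 1445229_at differed by -0.03. Whether the Dgat2 and Dgat1 differences themselves differ was not tested, since both genes were chosen with the contrast known.

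**Figure D2:**
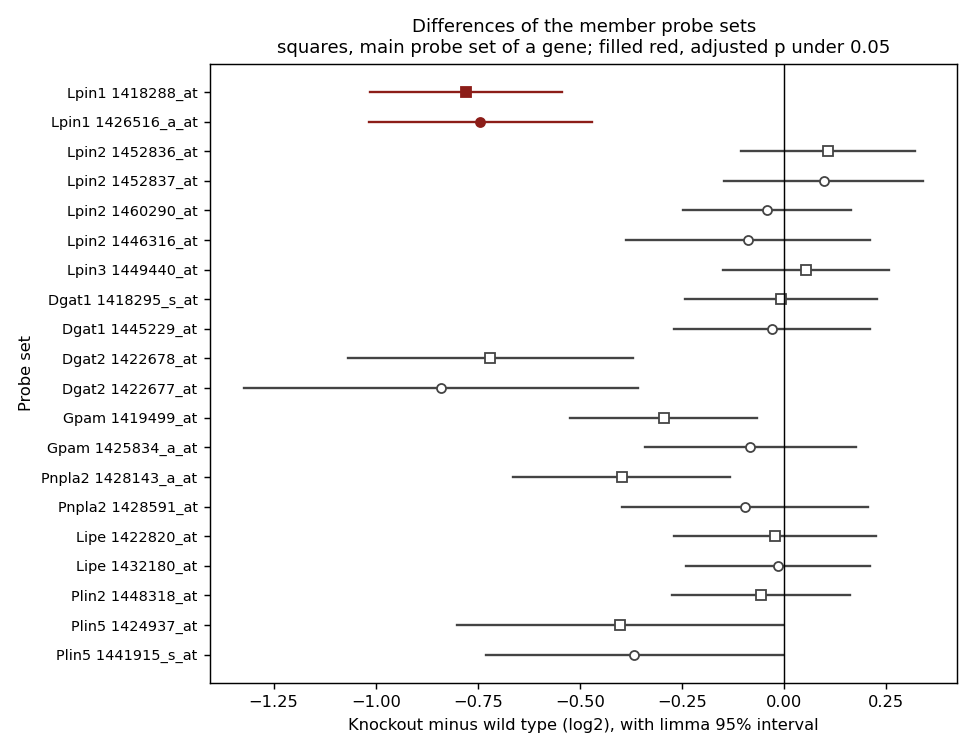
Knockout minus wild type difference (log2, horizontal axis) of each member probe set (vertical axis), with the 95% interval of the limma fit; squares are the main probe set of each gene and filled red symbols had an adjusted p under 0.05. Only the Lpin1 symbols are filled, at -0.78 and -0.74, and the Dgat2 symbols lie beside them at -0.72 and -0.84 with wider intervals.

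Among the lipases, Pnpla2, which catalyses the first cut of stored triglyceride, had one bright probe set. At 1428143_a_at it read 8.83, 8.78 and 9.04 in wild type and 8.40, 8.37 and 8.68 in knockout hearts. The groups were 0.10 apart, less than the SD within either genotype (0.14 and 0.17, n = 3 each), and the difference of -0.40 (SE 0.12, limma adjusted p = 0.234) did not pass. Its other probe set, 1428591_at, lay between 2.35 and 2.87 and differed by -0.10 with overlap. Lipe read 5.62, 5.33 and 5.43 in wild type and 5.34, 5.40 and 5.56 in knockout hearts at its main probe set, 1422820_at. It showed no separation, with a difference of -0.02 (95% interval -0.27 to 0.22, limma adjusted p = 0.975), and its dim probe set 1432180_at differed by -0.01.

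Of the droplet coat genes, Plin5 encodes the perilipin of oxidative tissues, which tethers droplets to mitochondria. Its main probe set, 1424937_at, read 8.29, 8.53 and 8.98 in wild type and 8.09, 8.03 and 8.48 in knockout hearts, so knockout replicate 3 lay above wild type replicate 1. The difference was -0.40 (SE 0.18, limma adjusted p = 0.470), and it was -0.21 without wild type replicate 3. The second probe set, 1441915_s_at, gave -0.37 and, without that array, -0.23. Plin2, the perilipin found on droplets of most cells, has 1 probe set, 1448318_at, which read 8.57, 8.62 and 8.73 in wild type and 8.51, 8.68 and 8.56 in knockout hearts. It did not separate the genotypes, with a difference of -0.06 and a 95% interval from -0.28 to 0.16 (limma adjusted p = 0.906).

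The members also varied among hearts of 1 genotype. At the 9 bright member probe sets, those in the top 10% by mean signal, wild type replicate 3 was the highest of all 6 arrays in 8, while over all probe sets that bright it was the highest in 21%. The exception was Gpam, where it was the lowest wild type array. At the 11 other member probe sets it was the highest array in 1, and over all probe sets outside the top 10% in 21.3%. Without wild type replicate 3 the median difference of the 10 main probe sets was -0.12, and without both that array and knockout replicate 1 it was -0.07. Whether the position of wild type replicate 3 on these genes and its distance on the first principal component share a source was not tested.

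**Figure D3:**
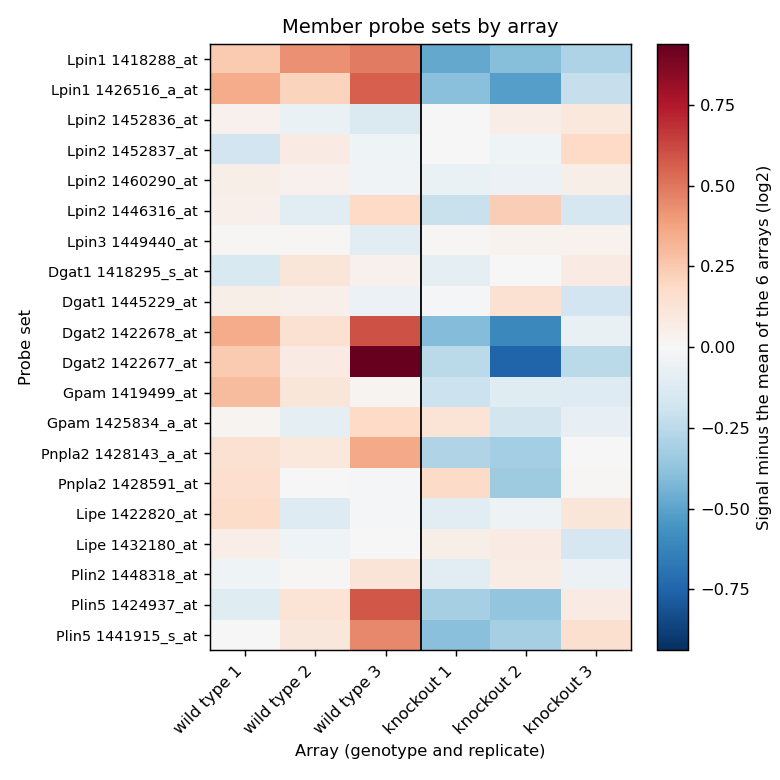
Signal of each member probe set (rows) on each array (columns), as the distance from the mean of the 6 arrays on the log2 scale (red above, blue below); the black line separates genotypes. The Lpin1 and Dgat2 rows are red in all 3 wild type hearts and blue in all 3 knockout hearts, and the darkest red cells of the Dgat2 and Plin5 rows are those of wild type replicate 3.

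Likeness to Lpin1 was measured as the root mean square difference between the 6 array values of its main probe set and those of another gene, each centred on its own mean. Among 9013 genes with a mean signal above the median of all genes, the closest were Sh3rf2 (0.05), a RING finger protein, Klhl30 (0.07), a Kelch family gene, and Asb14 (0.08), an ankyrin repeat and SOCS box gene. Within the 10 genes, Dgat2 was closest at 0.18, followed by Pnpla2 at 0.21, Plin5 at 0.25 and Gpam at 0.29. Lpin2, at 0.46, was the farthest. Among the 9013 genes, with the closest ranked lowest, Dgat2 stood at percentile 1.1, Pnpla2 at 2.0, Plin5 at 4.8 and Gpam at 8.4. Many genes outside the 10 were therefore closer to Lpin1 than these were. The measure uses the genotype contrast itself and describes only these 6 arrays.

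The other genes of triglyceride turnover were taken from lists grouped by role, and 60 of the 62 listed genes had a named probe set (Gk and Plin1 were not analysed here). At their main probe sets, 0 of the 60 passed the limma threshold in either direction, against 0.549% of all genes, and 14 had an unadjusted p under 0.05, against 11.5% of all genes and 5 of the 10 members. Counting any probe set, 3 genes had a lower call (0.344% of all genes) and 0 a higher one (0.405%). These were Ces1d, Ppargc1a and Vldlr. Over the 60 genes the median difference was -0.04, with 38 negative and 22 positive, and the median was -0.02 without wild type replicate 3.

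Ces1d, a carboxylesterase that hydrolyses triglyceride, had the most negative main probe set difference of the 18029 genes. That probe set, 1449081_at, read 6.79, 7.25 and 8.30 in wild type and 6.24, 5.25 and 6.16 in knockout hearts. The groups did not overlap, but hearts of 1 genotype differed widely (SD 0.77 and 0.55, n = 3 each). The difference of -1.56 (SE 0.36, limma adjusted p = 0.127) did not pass and was -1.14 without wild type replicate 3. The probe set 1435370_a_at read 6.42, 6.66 and 7.39 in wild type and 5.46, 4.68 and 5.45 in knockout hearts. It fell by 1.62 (SE 0.26, limma adjusted p = 0.0377), and leaving out any 1 array ended that call (adjusted p from 0.0529 to 0.141, with differences from -1.82 to -1.34), as did a robust variance prior (0.0846). The third probe set gave -1.20, and -0.81 without wild type replicate 3. The Ces1 genes are a cluster of close copies, so these probe sets may read more than 1 of them.

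The 8 genes of the lipolysis list, Ces1d included, had a median of -0.004, and of 0.11 without wild type replicate 3. The lipase gene Pnpla3 was at -0.31 and the lysosomal lipase gene Lipa at 0.20 (0.10 without that array). Abhd5, the coactivator of the Pnpla2 lipase, was at -0.19 at its main probe set (-0.09 without knockout replicate 1), and none of these passed. Only 1 of the 3 Abhd5 probe sets was negative, and the highest was at 0.18. In the droplet coat and assembly list (10 genes, median -0.09, and -0.04 without wild type replicate 3), Fitm2, which partitions triglyceride into droplets, read 8.80, 8.62 and 9.42 in wild type and 8.26, 8.21 and 8.54 in knockout hearts. It was lower in every knockout heart, and the difference of -0.61 (SE 0.19, limma adjusted p = 0.249) did not pass and was -0.38 without wild type replicate 3. Its relative Fitm1 was at -0.34 (-0.15 without that array), Plin4 at -0.38 and Plin3 at -0.33, also without passing.

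Among 11 glycerolipid synthesis enzymes (median -0.10, and -0.04 without wild type replicate 3) no probe set passed. The glycerol-3-phosphate dehydrogenase-like gene Gpd1l was at -0.38, the acyltransferase gene Gpat3 at -0.35 (-0.22 without that array) and Mogat1 at 0.27. Agpat5 was at 0.25 at its main probe set (0.14 without knockout replicate 1), and the lowest of its 3 probe sets was at -0.04. The 17 other enzymes that act on phosphatidate and diacylglycerol, among them phospholipid synthesis enzymes, diacylglycerol kinases and lipid phosphate phosphatases, also had no call and a median of -0.03 (0.02 without wild type replicate 3). Within that list the diacylglycerol kinase gene Dgke was at -0.53 (-0.37 without wild type replicate 3) and Pcyt2 at -0.22 (-0.14 without that array). The lipid phosphatase genes Plpp1 and Plpp3 were at 0.21 and 0.24 (0.14 and 0.16 without that array).

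**Figure D4:**
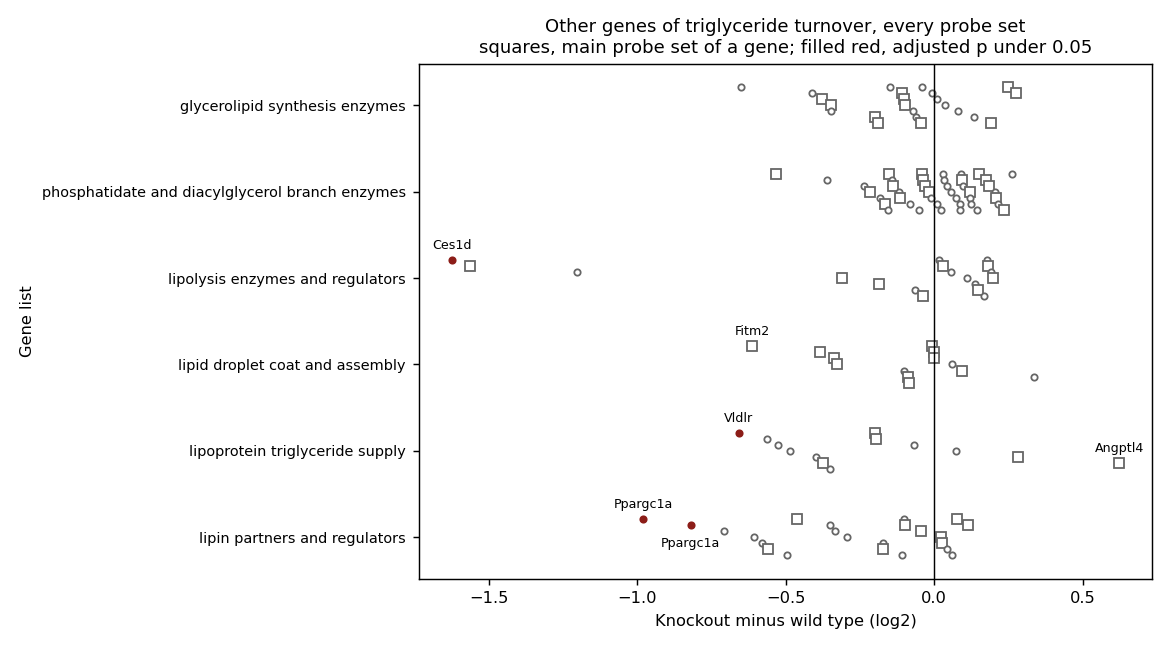
Knockout minus wild type difference (log2, horizontal axis) of every probe set of the other genes of triglyceride turnover, by list (vertical axis); squares are main probe sets and filled red symbols had an adjusted p under 0.05. The 4 filled symbols, of Ces1d, Vldlr and Ppargc1a, all lie below 0, and none is a main probe set.

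Genes of triglyceride supply from lipoproteins were measured in 5 cases. Vldlr, the very low density lipoprotein receptor, had 6 probe sets, and in 6 of 6 every knockout heart was below every wild type heart, with differences from -0.66 to -0.35. One of them, 1435893_at, read 9.21, 8.99 and 8.91 in wild type and 8.25, 8.38 and 8.51 in knockout hearts. It fell by 0.66 (SE 0.11, limma adjusted p = 0.0485), a call that ended without any 1 array (adjusted p from 0.0857 to 0.204) and with arrays centred on their medians (0.053). The main probe set of Vldlr gave -0.37. Lpl, the lipoprotein lipase gene, was at -0.20 near the top of the scale and at -0.40 at its other probe set. In both, every knockout heart was below every wild type heart. Gpihbp1, its anchor on capillaries, was at 0.28. Angptl4, an inhibitor of the lipase, was at 0.62 at its main probe set and at -0.07 at its other one. None of these passed.

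Partners and regulators of lipin 1 held the other calls. Ppargc1a encodes PGC-1 alpha, which is known both to induce Lpin1 and to act with its product. The probe set 1434099_at read 6.36, 6.20 and 6.44 in wild type and 5.50, 5.42 and 5.63 in knockout hearts. It fell by 0.82 (SE 0.10, limma adjusted p = 0.0125), and it kept its call in 3 of the 6 cases with 1 array left out, losing it without wild type replicate 1, knockout replicate 1 or knockout replicate 2. The probe set 1434100_x_at fell by 0.98 (limma adjusted p = 0.00995) and lost its call without knockout replicate 2 or knockout replicate 3; its suffix marks probes that may match other sequences.

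The brightest Ppargc1a probe set, 1460336_at, overlapped between genotypes, since knockout replicate 1 read 8.09 against 8.06 in wild type replicate 2. Its difference of -0.56 did not pass (limma adjusted p = 0.302) and was -0.40 without wild type replicate 3. In 4 of the 5 Ppargc1a probe sets every knockout heart was below every wild type heart. The 5 differences ran from -0.98 to -0.56, and 2 of the 5 passed. Ppara, the fatty acid receptor, was at -0.46 at its main probe set (-0.35 without wild type replicate 3), where the groups overlapped. In 2 of the 3 Ppara probe sets every knockout heart was below every wild type heart. The 3 differences ran from -0.58 to -0.46, and 0 of the 3 passed. The glucocorticoid receptor gene Nr3c1 was at -0.17 (-0.09 without knockout replicate 1). Cnep1r1, a subunit of the phosphatase that acts on lipins, was at 0.11. The list of 9 partners and regulators had a median of -0.04, and of -0.08 without wild type replicate 3.

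Markers of other cell types were read beside these values, because in a whole heart fewer cells of a type and less RNA per cell cannot be told apart. At their main probe sets all 10 cardiomyocyte markers had a negative difference, 0 of 10 passed and 2 had an unadjusted limma p under 0.05. Their summed log2 level was 16.53 to 16.58 in wild type and 16.42 to 16.46 in knockout hearts. Several of these probe sets lay near the top of the scale, where differences can be compressed. Of all 27 cardiomyocyte probe sets, 18 had every knockout heart below every wild type heart (8.42% of all probe sets), and 0 had every one above. Atp2a2 was at -0.14 at its main probe set. Its other probe sets were at -0.88 (-0.63 without wild type replicate 3), -0.75, -0.65, -0.27 and -0.10. Further probe sets of Myl3, Pln, Ryr2, Tnnt2 and Ttn lay from -0.48 to -0.06. The other Mb probe set was at 0.11. The macrophage list was higher in 10 of 10 markers, of which 6 had an unadjusted p under 0.05 by limma and 0 an adjusted one. Its summed level was 10.86 to 11.25 against 11.35 to 11.53. Over all genes, 11.5% had an unadjusted limma p under 0.05 and 0.549% an adjusted one, and 8907 of 18029 had a positive difference. The fibroblast list, with 5 of 6 markers higher and 1 past the limma threshold, summed to 12.92 to 13.48 against 13.65 to 13.75, and 12.92 was wild type replicate 3 alone, the other wild type arrays reading 13.47 and 13.48. Without that array the median difference went from 0.47 to 0.27 for the fibroblast list and from 0.39 to 0.25 for the macrophage list. Lpin1's signal and these levels all separated the genotypes, and the part of these levels in the Lpin1 difference was not tested.

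Fat tissue around the heart is another source of triglyceride genes. Among the adipocyte markers, Adipoq read between 2.31 and 3.08, Lep between 2.43 and 2.81 and Cidec between 1.71 and 2.04, beside an array lower quartile of 2.72 to 2.78 and median of 4.24 to 4.28. Retn, at 3.96 to 4.08, Car3, at 3.02 to 3.43 for its main probe set, and Acvr1c, at 2.75 to 3.12, lay between those levels or close to the lower one. The 7 adipocyte markers had a median difference of 0.03, with 0 calls by limma and 0 at an unadjusted p under 0.05. Their summed level, carried by Fabp4, which endothelial cells also express, was 12.30 to 12.46 in wild type and 12.42 to 12.56 in knockout hearts. Endothelial markers summed to 10.58 to 10.66 against 10.41 to 10.66, and red blood cell markers to 6.53 to 7.07 against 7.06 to 7.28.

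**Figure D5:**
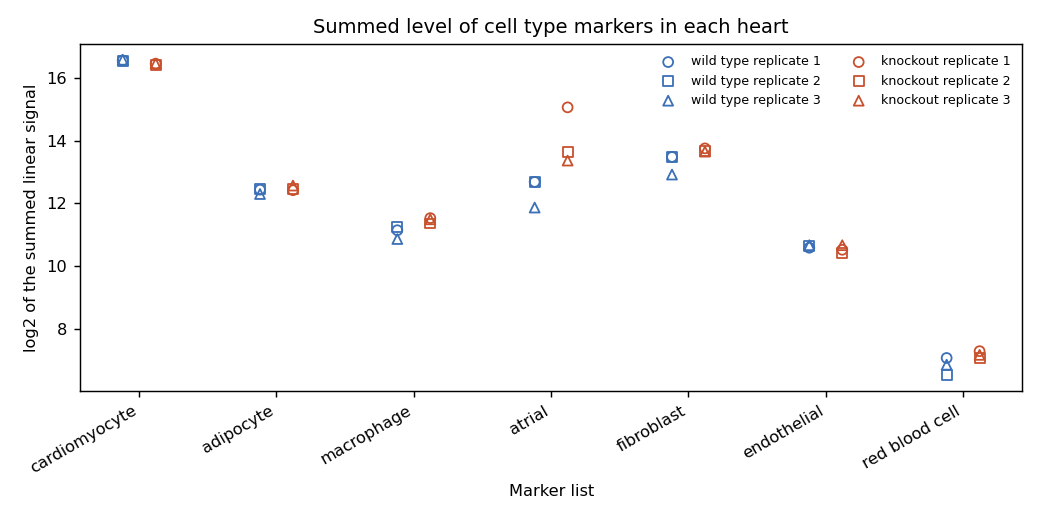
Summed linear signal of each marker list on a log2 scale (vertical axis) in each heart, for 7 cell type lists (horizontal axis); blue is wild type, red is knockout, and symbols mark the replicate. Cardiomyocyte sums lie lower and macrophage, fibroblast and atrial sums higher in the 3 knockout hearts. Adipocyte and endothelial sums overlap, and knockout replicate 1 stands out at 15.06 on the atrial list.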

How the data were processed

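The data are 6 Affymetrix arrays of RNA from banded mouse hearts, 1 per mouse, 3 in each genotype. The authors deposited log2 signals per probe set, made with RMA per the submitters' processing notes, which also name limma; their versions and settings were not stated there. That method makes the array distributions alike, which removes any overall shift and can compress differences at both ends of the scale. Neither scan files nor scan dates were used, and batches could not be looked for. The number of arrays limits the precision.

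Of 38208 probe sets 13 were array controls and were dropped. For the remaining 38195, the platform annotation gave 34325 a single symbol, several to 62 and none to 3808. Tmem159 on the array stands for Ldaf1. The genotypes were compared in limma 3.58.1 in R 4.3.3 (lmFit and eBayes, Benjamini-Hochberg over all 38195, adjusted p threshold 0.05). The replicate number was left out, since over the whole array same-numbered arrays correlated only weakly in their deviations from the group means. The code was tested on simulated data. Members, gene lists, naming rules and alternatives were chosen with earlier results of these data known. Every member probe set is named; of the other pathway genes, those with a call and up to 4 per list with the smallest unadjusted p; and the 3 genes most like Lpin1. Adipoq, Lep, Cidec, Retn, Car3, Acvr1c, Fabp4, Myl7, Sln, Nppa, Atp2a2, Mb, Myl3, Pln, Ryr2, Tnnt2 and Ttn are named as markers.

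Other settings tried were the replicate number as a block, a trended or a robust variance prior, weighted arrays, quantile normalization repeated on the deposited values, arrays centred on their medians, only probe sets brighter than the 40th percentile, a fit with 1 probe set per gene, each array left out in turn, and knockout replicate 1 and wild type replicate 3 both left out.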

Additional observations from a re-analysis of the deposited data

How the results depend on the processing

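The direction of 7 of the 10 member main probe sets was the same under every alternative; Dgat1, Lipe and Plin2, whose differences lie near 0, turned in some. With single arrays left out, Dgat1 ranged from -0.0808 to 0.0478 and Lipe from -0.0878 to 0.0564, and with knockout replicate 1 and wild type replicate 3 both left out Dgat1 was at 0.0544, Lipe at 0.00976 and Plin2 at 0.0257. The Lpin1 difference ranged from -0.85 to -0.73 with single arrays left out and was -0.68 without both, when its call was lost (limma adjusted p = 0.208). It kept its call under the 8 alternatives that used all 6 arrays. The member probe sets called numbered 0 to 1 with single arrays left out, 0 without both and 1 with 1 probe set per gene, against 2. Pathway genes with a call numbered 0 to 1, 0 and 0 under the same settings, against 3, and 2 under a robust prior, where Ces1d lost its call, or median centring, where Vldlr did. Calls over the whole array fell from 161 to between 38 and 86 with single arrays left out, 29 without both and 102 with 1 probe set per gene. Fewer arrays, or fewer probe sets tested, are part of those settings, and the cause of a lost call was not tested otherwise.

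With the replicate number as a block, 168 probe sets were called over the whole array, 3 of them members. The main Dgat2 probe set then passed (-0.72, limma adjusted p = 0.0333), and under the other alternatives its adjusted p ran from 0.0835 to 0.571. Vldlr 1435893_at did not pass with the block (limma adjusted p = 0.0899). Across all alternatives Vldlr 1435893_at was called in 5 of 14, with limma adjusted p from 0.038 to 0.256. Over the whole array, same-numbered arrays correlated at 0.06, 0.14 and 0.02 in their deviations from the group means, and other pairs at -0.14 to 0.08. The numbers were therefore not taken to pair the mice. At the 7 bright probe sets of Lpin1, Dgat2, Pnpla2 and Plin5, wild type replicate 3 was the highest wild type array in 7. Knockout replicate 3 was the highest knockout array there in 6. Whether same-numbered mice were related was not tested. Dim probe sets, such as those below the lower quartile, limit what can be said of the minor Lpin2, Pnpla2 and Lipe probe sets.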
